A study of Homo sapiens with 6 samples.

Results

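Glycosyltransferase and sugar sulfotransferase genes were examined in Hs578T, an established breast cancer cell line with a mesenchymal look and no oestrogen receptor. The genes were taken by symbol from the platform's annotation: the GALNT, CHST, CHSY, HS2ST to HS6ST, NDST, EXT and EXTL, XYLT, HAS, FUT, ALG and MGAT families, with antisense symbols left out, and the brightest probe set standing for each gene. The rule found 64 genes among the 14884 genes named here, of which 61 are annotated as protein coding and 3 (the pseudogenes MGAT4EP and MGAT4FP and the divergent transcript B3GAT1-DT) are not. The rule also asked for B3GALT, B4GALT, B4GALNT, B3GNT, ST3GAL, ST6GAL and ST8SIA enzymes, but no probe set used here was named for one. Galactosylation and sialylation were therefore not analysed here. No MGAT or B3GAT enzyme was among the genes either, only those pseudogenes and the divergent transcript. FUT2 alone stood for the FUT family, and ALG13, ALG14 and ALG1L2 for the ALG family. The label is therefore met mainly for glycosaminoglycan and mucin-type O-glycan enzymes.

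The tested cells had received a small interfering RNA against CSRP2, which encodes a LIM domain protein that bundles actin filaments. The control cells had received a non-targeting siRNA. Both were transfected by lipofection, reseeded after 24 h and lysed 48 h later, with 3 arrays per group. Nothing in the labels ties the replicates to separate cultures, so the spread behind each p-value is that between arrays and may be technical. All arrays come from 1 cell line, and the labels do not give the siRNA sequence or say how many siRNAs were used.

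Glycosyltransferases of the endoplasmic reticulum and Golgi add single sugars to proteins and lipids, and Golgi sulfotransferases then modify the chains. Heparan sulfate and chondroitin sulfate share a linkage region that xylosyltransferases begin on a proteoglycan core; the exostosins then build heparan sulfate, while separate synthases build chondroitin sulfate. Hyaluronan is different: HAS enzymes make it at the plasma membrane, without a core protein and without sulfation. GALNT enzymes begin mucin-type O-glycans by adding GalNAc to serine or threonine. These sugars shape how mesenchymal and tumour cells bind growth factors and matrix.

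The deposited values are log2 signals per probe set, and differences below are siCSRP2 minus siControl on that scale, tested with limma and Benjamini-Hochberg adjustment over all 14884 genes at a threshold of 0.05. Over all probe sets the siCSRP2 arrays had medians of 2.80 to 2.82 and SDs of 1.29 to 1.32, and the siControl arrays medians of 2.70 to 2.76 and SDs of 1.35 to 1.38. Neither measure overlapped between groups, and 4852 of the 7442 genes above the median gene had a difference below 0, beside 2134 of the 7442 others. The part of this spread in the results was not tested. siControl 3 lay between the groups on the first principal component, at -2.05, beside 14.01 to 30.7 for the siCSRP2 arrays and -31.5 and -31.2 for the other controls. Values without siControl 3 are therefore given for many results, but not for every called gene of the pathway lists. The siRNA's target does not check the labels: CSRP2 measured 3.25, 3.76 and 4.26 on siCSRP2 arrays and 3.69, 4.01 and 4.35 on siControl arrays (difference -0.26, SE 0.26, limma adjusted p = 0.583). It was lower in each of the 3 pairs of equal replicate number, and the fit blocked on replicate number gave an SE of 0.12 (adjusted p = 0.188). siCSRP2 below therefore means the arrays labelled siCSRP2. Of 6 measured mesenchymal markers all lay above the median gene, which had a mean of 2.99, and among them VIM averaged 7.63 and FN1 10.8 over the 6 arrays. Of these 6 markers 4 fell in siCSRP2 cells along with the genes below: AXL (-1.73, limma adjusted p = 0.00833), VIM (-0.82, 0.0149), FN1 (-0.59, 0.0299) and THY1 (-0.77, 0.032). The mean of the 6 ran from 6.85 to 7.10 on siCSRP2 arrays and from 7.56 to 7.86 on siControl arrays, and its part in the results was not tested. The luminal markers ESR1 and PGR and the endothelial markers PECAM1 and KDR lay below that median. EPCAM (3.28) and GATA3 (3.74) lay above it, as did the lysosomal gene CD68 (7.92), a macrophage marker, while CD14 was below.

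In siCSRP2 cells 8 of the 64 genes fell and none rose. They were the chondroitin 6-O-sulfotransferase CHST3, the O-GalNAc transferases GALNT1 and GALNT11, the heparan sulfate polymerase EXT1 and its relative EXTL2, the heparan sulfate sulfotransferases HS2ST1 and HS6ST3, and the xylosyltransferase XYLT2. The falls ran from 1.46-fold (GALNT11) to 2.58-fold (CHST3). The share that fell was 12.5%, against 6.54% of all genes, and 0.800% of all genes rose. At an unadjusted p under 0.05, 14 of the 64 were lower and 3 higher. The median difference of the 64 genes was -0.03, beside 0.02 for all genes, and 34 lay below 0 and 30 above. Without siControl 3, 12 fell and 1 rose (14.7% and 2.87% of all genes). In a fit blocked on replicate number there were 11 falls and 1 rise (13.1% and 2.67% of all genes). That pairing rests on these same values and not on the labels, so adjusted p-values with the block may be too small.

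Signal level and calls went together. Of the 64 genes, 31 had a mean above that of the median gene, and 7 of these fell, or 22.6%, against 12.7% of all genes in that range, where 1.41% rose. Of the other 33 genes, only GALNT11 passed, and those genes had a median difference of 0.10. Among all genes at or below the median gene 0.417% fell and the median difference was 0.08, close to that of the 33. No detection calls were used here, so whether such a probe set measures a transcript was not tested, and folds of dim probe sets may be too small.

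**Figure D1:**
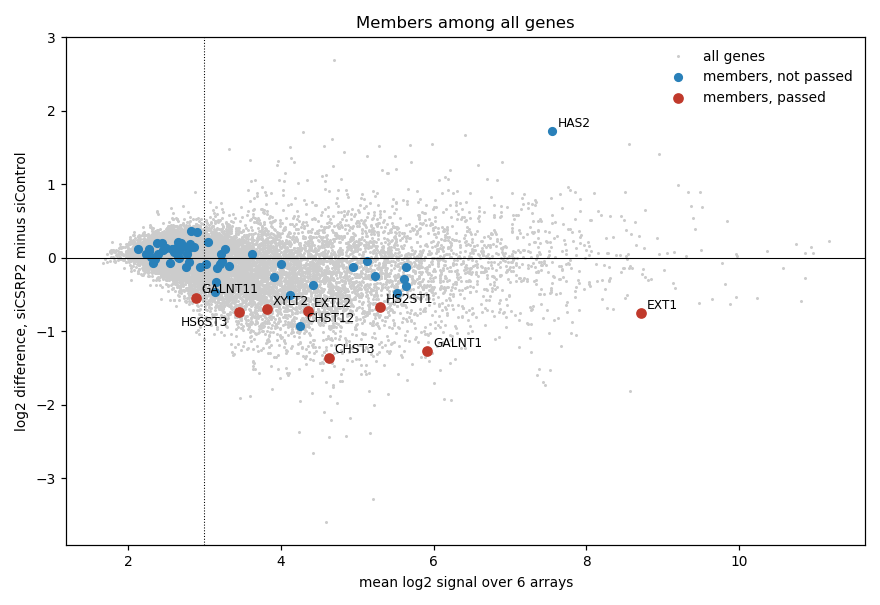
Mean log2 signal over the 6 arrays (x axis) against the log2 difference, siCSRP2 minus siControl (y axis), for all 14884 genes in grey and the 64 genes in blue or, if past the threshold, red; the dotted line marks the median gene at 2.99. The 8 red genes lie below 0, and HAS2, at a difference of 1.72, stands alone above the rest of the blue points.

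CHST3 and GALNT1 had the largest falls. CHST3, which puts sulfate on carbon 6 of the GalNAc of chondroitin, measured 4.05, 3.73 and 4.05 on siCSRP2 arrays and 5.40, 5.42 and 5.10 on siControl arrays. The groups lay more than 1 log2 unit apart and did not overlap. The difference was -1.36 (SE 0.14, 95% interval -1.69 to -1.04, 2.58-fold, limma adjusted p = 0.00316). GALNT1, a broadly expressed O-GalNAc transferase, measured 5.38, 5.37 and 5.07 on siCSRP2 arrays and 6.85, 6.39 and 6.39 on siControl arrays. It too had no overlap, with a difference of -1.27 (SE 0.16, 95% interval -1.63 to -0.91, 2.41-fold, limma adjusted p = 0.00644). With each array left out in turn, CHST3 stayed between -1.47 and -1.26 and GALNT1 between -1.35 and -1.12, and both passed in all 6 fits.

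The 250 bases before an annotated start of these genes are shown with those of a close paralog, CHST7 for CHST3 and GALNT13 for GALNT1, to set a promoter of a gene that fell beside that of a relative that did not pass. The sequences are from RefSeq on GRCh38.p14, all on the plus strand, in lower case with motif matches in capitals; CHST3 and GALNT1 have 3 listed starts each and GALNT13 has 2, and the first listed is used.
CHST3, chr10:71964145-71964394: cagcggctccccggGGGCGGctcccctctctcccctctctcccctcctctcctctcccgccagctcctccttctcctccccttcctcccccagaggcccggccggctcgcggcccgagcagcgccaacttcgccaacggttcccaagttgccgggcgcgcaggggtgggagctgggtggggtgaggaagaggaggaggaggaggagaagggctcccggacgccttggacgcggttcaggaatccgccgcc
CHST7, chrX:46573515-46573764: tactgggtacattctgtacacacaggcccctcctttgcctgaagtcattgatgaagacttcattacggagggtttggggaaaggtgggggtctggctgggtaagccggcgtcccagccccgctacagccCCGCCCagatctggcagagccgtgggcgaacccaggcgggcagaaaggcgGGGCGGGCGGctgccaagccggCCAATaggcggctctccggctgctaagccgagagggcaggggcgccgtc
GALNT1, chr18:35580672-35580921: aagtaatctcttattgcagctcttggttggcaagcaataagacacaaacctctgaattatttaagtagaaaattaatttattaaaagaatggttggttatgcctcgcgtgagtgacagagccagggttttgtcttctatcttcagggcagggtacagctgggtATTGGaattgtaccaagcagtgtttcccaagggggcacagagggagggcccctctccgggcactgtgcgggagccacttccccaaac
GALNT13, chr2:153068043-153068292: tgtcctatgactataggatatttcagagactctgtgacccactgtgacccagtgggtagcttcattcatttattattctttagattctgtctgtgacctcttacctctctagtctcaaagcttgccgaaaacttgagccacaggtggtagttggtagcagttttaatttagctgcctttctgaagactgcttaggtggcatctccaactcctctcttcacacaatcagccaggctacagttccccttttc

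The capitals mark matches on either strand to any of 7 motifs. These were the TATA box with letters TATAAA, the CCAAT box with letters CCAAT, the GC box with letters GGGCGG, the TEAD motif with letters GGAATG, the AP-1 motif with letters TGANTCA, the E-box with letters CACGTG and the cyclic AMP response element with letters TGACGTCA. Of the CHST7 matches, 2 GC boxes overlap. CHST3 held 1 GC box and GALNT1 held 1 CCAAT box, while CHST7 held 3 GC boxes and 1 CCAAT box and GALNT13 held none of the 7 motifs. GC content was 72.4% for CHST3, 65.6% for CHST7, 47.2% for GALNT1 and 44.4% for GALNT13, beside a median of 58% over 27305 promoters. Among the 7 fallen genes with a promoter in the table, 4 had a GC box (42.3% of all promoters), 3 a CCAAT box (33%), 2 a TEAD motif (11.9%) and 1 an E-box (6.49%), and none had a TATA box (11.1%), an AP-1 motif (6.6%) or the cyclic AMP element (1.77%). A match is a description of these letters only.

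The probe sets of the paralogs CHST7 and GALNT13 averaged 2.76 and 2.63 over the arrays, below the median gene, and differed by -0.12 (95% interval -0.41 to 0.16) and 0.13 (-0.12 to 0.38). At those levels a fall would be hard to see, so these probe sets do not show that the paralogs behave differently.

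**Figure D2:**
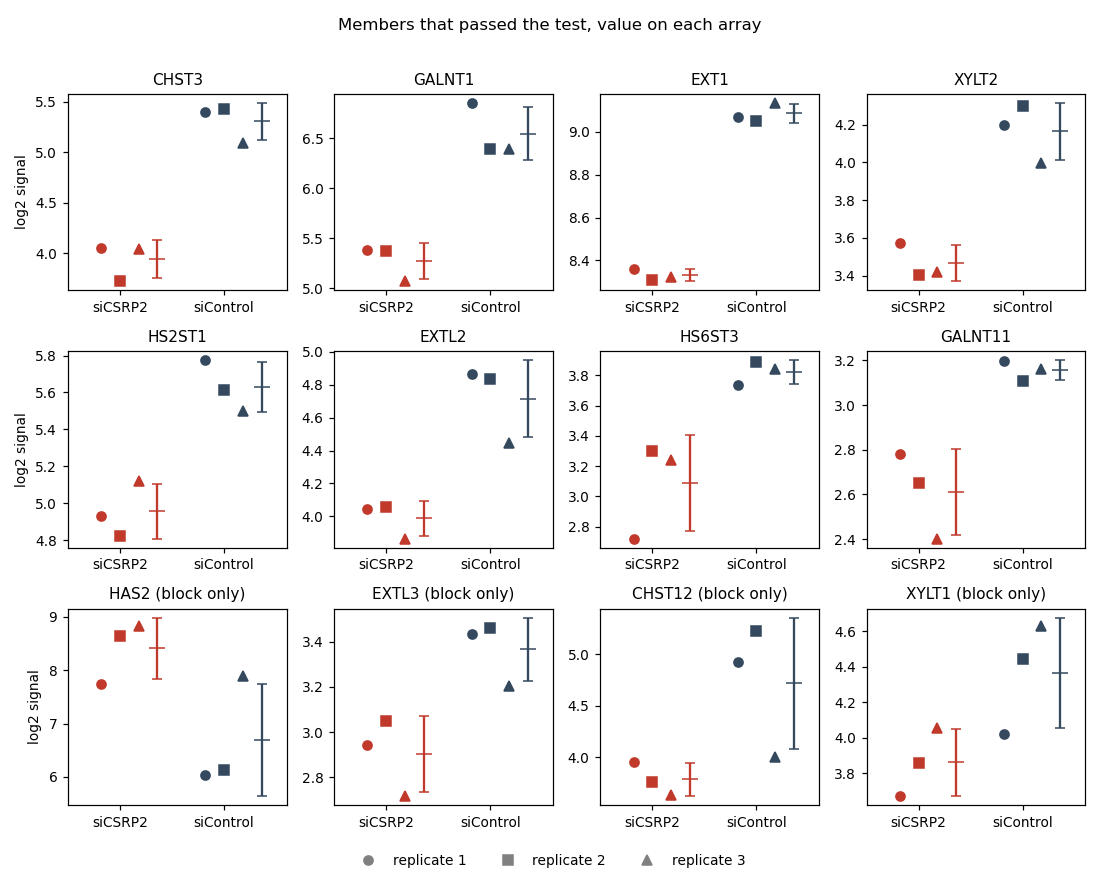
Log2 signal (y axis, a separate range in each panel) on each siCSRP2 and siControl array for the 12 genes that passed with or without the replicate number as a block; symbols mark the replicate number and bars the mean ± SD of 3 arrays. In the upper 8 panels every siCSRP2 array lies below every siControl array, and in the HAS2 panel siControl 3, at 7.89, lies above siCSRP2 1, at 7.75.

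Heparan sulfate genes gave 4 of the 8 falls. The class held 19 genes, of which 21.1% fell, against 6.54% of all genes and 12.7% of all genes above the median gene. The other 15 did not pass, and the median difference of the 19 was -0.02. EXT1, which forms the heparan sulfate copolymerase with EXT2, was the brightest of the 64 genes. It measured 8.36, 8.31 and 8.32 on siCSRP2 arrays and 9.07, 9.05 and 9.14 on siControl arrays. Its groups were the tightest of the 8, with SDs of 0.027 and 0.044, and the difference of -0.76 (SE 0.10, 95% interval -0.98 to -0.53, 1.69-fold, limma adjusted p = 0.00721) passed with any 1 array left out. EXT2 measured 5.28, 5.60 and 5.51 on siCSRP2 arrays and 5.78, 5.72 and 5.77 on siControl arrays. It was lower on each siCSRP2 array but did not pass (-0.29, 95% interval -0.56 to -0.03, limma adjusted p = 0.167).

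The EXTL genes encode exostosin-like transferases, whose roles differ between members. EXTL2 measured 4.04, 4.06 and 3.87 on siCSRP2 arrays and 4.86, 4.84 and 4.45 on siControl arrays, without overlap. Its difference was -0.73 (SE 0.14, 1.65-fold, limma adjusted p = 0.0218), and -0.86 without siControl 3. EXTL3, thought to begin the heparan sulfate chain, measured 2.94, 3.05 and 2.72 on siCSRP2 arrays and 3.43, 3.46 and 3.21 on siControl arrays. The groups did not overlap, and the difference of -0.46 (SE 0.13) did not pass in limma (adjusted p = 0.0659) but passed with the replicate block (adjusted p = 0.0219; 0.0213 to 0.238 over all alternatives). EXTL1 averaged 2.39 and differed by 0.05.

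Among 14 genes for heparan sulfate sulfation there were 2 falls and no rise, and 12 genes stayed short of the threshold. For comparison, 6.54% of all genes fell, and 12.7% of all genes above the median gene. HS2ST1, which sulfates the uronic acid at its 2-O position, measured 4.93, 4.82 and 5.12 on siCSRP2 arrays and 5.78, 5.61 and 5.50 on siControl arrays (difference -0.67, SE 0.13, 1.59-fold, limma adjusted p = 0.0196). HS6ST3, a 6-O-sulfotransferase, measured 2.72, 3.30 and 3.24 on siCSRP2 arrays and 3.74, 3.89 and 3.84 on siControl arrays (-0.74, SE 0.16, 1.67-fold, limma adjusted p = 0.0322). Neither gene had overlapping groups, and siCSRP2 1 was the lowest array for HS6ST3, whose difference was -0.55 without it. NDST1, the N-deacetylase and N-sulfotransferase that acts first on the chain, measured 5.44, 5.24 and 5.17 on siCSRP2 arrays and 5.70, 6.06 and 5.52 on siControl arrays. It did not pass (-0.47, SE 0.15, limma adjusted p = 0.102) except without siControl 3 (-0.59, adjusted p = 0.025) and with array weights (adjusted p = 0.0235), with a range of 0.0235 to 0.321 over all alternatives. Of the 3-O-sulfotransferases, which add the rarest sulfate, HS3ST3A1 was the brightest at a mean of 4.94 and differed by -0.13 (95% interval -0.53 to 0.27). HS3ST5 was the most raised of the 14, by 0.37 (limma adjusted p = 0.201).

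The xylosyltransferases, which link the first sugar of both heparan and chondroitin sulfate to the core protein, gave 1 fall of 2 genes. XYLT2 measured 3.57, 3.40 and 3.42 on siCSRP2 arrays and 4.20, 4.30 and 4.0 on siControl arrays, with no overlap (difference -0.70, SE 0.12, 1.62-fold, limma adjusted p = 0.0149). XYLT1 measured 3.67, 3.86 and 4.05 on siCSRP2 arrays and 4.02, 4.45 and 4.63 on siControl arrays. Its groups overlapped, although it was lower in each of the 3 pairs of equal replicate number. The difference of -0.50 (SE 0.17) did not pass in limma (adjusted p = 0.117) and passed in only 1 of the 16 alternatives, the replicate block (adjusted p = 0.0203; 0.0203 to 0.331 over all alternatives).

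Read together, the linkage and heparan sulfate classes held 21 genes, with 5 falls and no rise; the grouping was made after the values were seen and was not tested. Of the 11 that lay above the median gene, 5 fell and 8 had groups that did not overlap, all lower. Among all genes above that median 12.7% fell, and 27.8% had non-overlapping groups with siCSRP2 lower and 7.81% with siCSRP2 higher. Among all genes 16.2% had non-overlapping groups with siCSRP2 lower and 11.5% with siCSRP2 higher. Among the 64 genes these were 13 and 3.

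**Figure D3:**
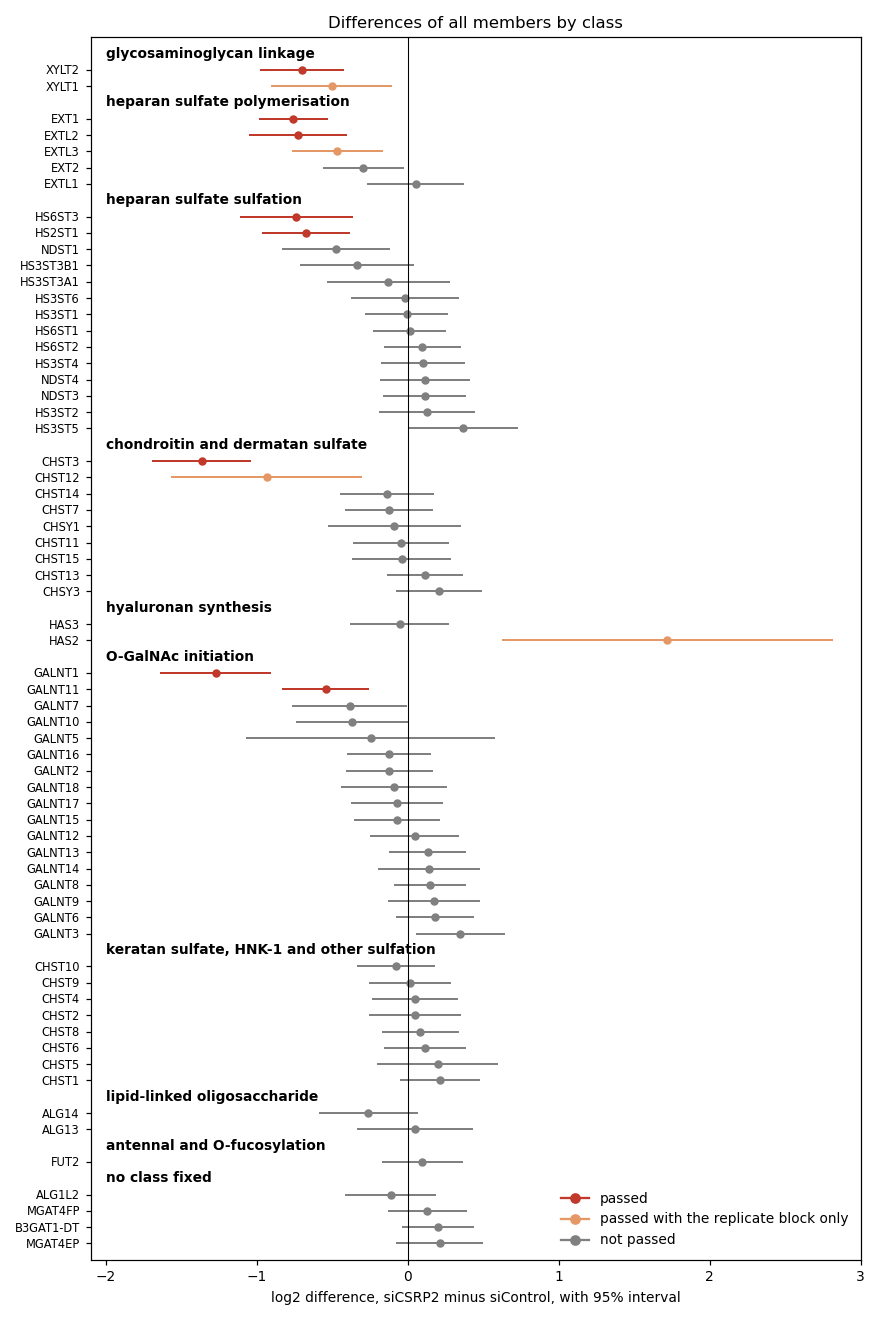
Log2 difference, siCSRP2 minus siControl, with its 95% interval (x axis) for each of the 64 genes, grouped by class; red genes passed, orange genes passed with the replicate block only and grey genes did not pass. The red genes lie in the linkage, heparan sulfate, chondroitin and O-GalNAc classes, and the interval of HAS2, 0.63 to 2.81, is the widest.

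Chondroitin and dermatan sulfate genes differed among themselves. CHST3 alone of 9 fell, beside 6.54% of all genes and 12.7% of all genes above the median gene. CHST12, a chondroitin 4-O-sulfotransferase, measured 3.95, 3.76 and 3.63 on siCSRP2 arrays and 4.92, 5.23 and 4.0 on siControl arrays. siControl 3 lay within 0.1 of siCSRP2 1, and the difference of -0.93 (SE 0.28, limma adjusted p = 0.0789) was -1.29 without that control (adjusted p = 0.000966) and passed with the replicate block (adjusted p = 0.0142; 0.000966 to 0.257 over all alternatives). CHST15, which adds a second sulfate to GalNAc 4-sulfate, was the brightest of the class. It measured 5.08, 5.21 and 5.02 on siCSRP2 arrays and 5.04, 5.42 and 4.98 on siControl arrays, a difference of -0.04 (95% interval -0.36 to 0.28) that turned positive under quantile normalization (0.14). The synthase CHSY1 differed by -0.09 (-0.52 to 0.35), CHST11 by -0.05 (-0.36 to 0.26) and the dermatan 4-O-sulfotransferase CHST14 by -0.14 (-0.44 to 0.16).

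Differences within an array were set against each other for 4 pairs of genes, chosen after the values were seen. The CHST3 minus CHST15 value was -1.03, -1.49 and -0.97 on siCSRP2 arrays and 0.36, 0.01 and 0.12 on siControl arrays, a change of -1.32. The GALNT1 minus GALNT2 value changed by -1.15 and the EXT1 minus EXT2 value by -0.46, and neither pair overlapped between groups. XYLT2 minus XYLT1 changed by -0.20, with overlap. Since the pairs set a gene that fell beside a relative already seen to differ less, these values are a description and carry no test.

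HAS2, the main hyaluronan synthase of mesenchymal cells, had the largest difference of the 64 genes. It measured 7.75, 8.64 and 8.84 on siCSRP2 arrays and 6.04, 6.13 and 7.89 on siControl arrays. siControl 3 lay above siCSRP2 1, so the groups overlapped, while each siCSRP2 array was above the control of the same number. The difference of 1.72 (SE 0.48, 95% interval 0.63 to 2.81, 3.29-fold) did not pass in limma (adjusted p = 0.0658). It passed with the replicate block (SE 0.25, adjusted p = 0.0041) and without siControl 3 (2.32, adjusted p = 0.000966), and failed with any other array left out (adjusted p up to 0.242); over all 16 alternatives it passed in 7. HAS3, another hyaluronan synthase, averaged 2.79 and differed by -0.05 (95% interval -0.37 to 0.27). The antisense transcript HAS2-AS1, not one of the 64 genes, measured 3.95, 3.43 and 3.62 on siCSRP2 arrays and 3.91, 3.65 and 3.85 on siControl arrays (difference -0.14, limma adjusted p = 0.624).

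The 17 O-GalNAc transferases gave 2 falls and no rise, and 15 stayed short of the threshold. Beside this, 6.54% of all genes fell, and 12.7% of all genes above the median gene. The class count was not tested. GALNT11 measured 2.78, 2.65 and 2.40 on siCSRP2 arrays and 3.20, 3.11 and 3.16 on siControl arrays (difference -0.54, SE 0.12, 1.46-fold, limma adjusted p = 0.0366), at a dim level. The other bright members did not pass. GALNT2 measured 5.44, 5.72 and 5.57 on siCSRP2 arrays and 5.79, 5.76 and 5.54 on siControl arrays. Its difference was -0.12 (95% interval -0.40 to 0.16), and 0.03 under quantile normalization; a second, dimmer probe set gave 0.15. GALNT7 measured 5.10, 5.56 and 5.68 on siCSRP2 arrays and 5.99, 5.78 and 5.72 on siControl arrays (-0.38, limma adjusted p = 0.202). GALNT5 was low on 1 array: it measured 4.13, 5.49 and 5.69 on siCSRP2 arrays and 5.08, 5.44 and 5.53 on siControl arrays. Its difference was -0.25 (95% interval -1.06 to 0.57) and turned to 0.24 without siCSRP2 1. GALNT3 had the largest positive difference of the class, 0.35 (limma adjusted p = 0.134), with all siCSRP2 arrays above all controls.

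The remaining classes held no gene that passed. The 8 genes for keratan sulfate and other sulfation averaged 2.24 to 3.26 over the arrays and differed by -0.08 to 0.22, with CHST1, a keratan sulfate sulfotransferase, the highest (0.22, limma adjusted p = 0.292). ALG14, a subunit of the enzyme that adds the second GlcNAc to the dolichol-linked precursor, differed by -0.26 (limma adjusted p = 0.301), and its partner ALG13 by 0.05. FUT2, the secretor fucosyltransferase, averaged 2.67 and differed by 0.10.

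**Figure D4:**
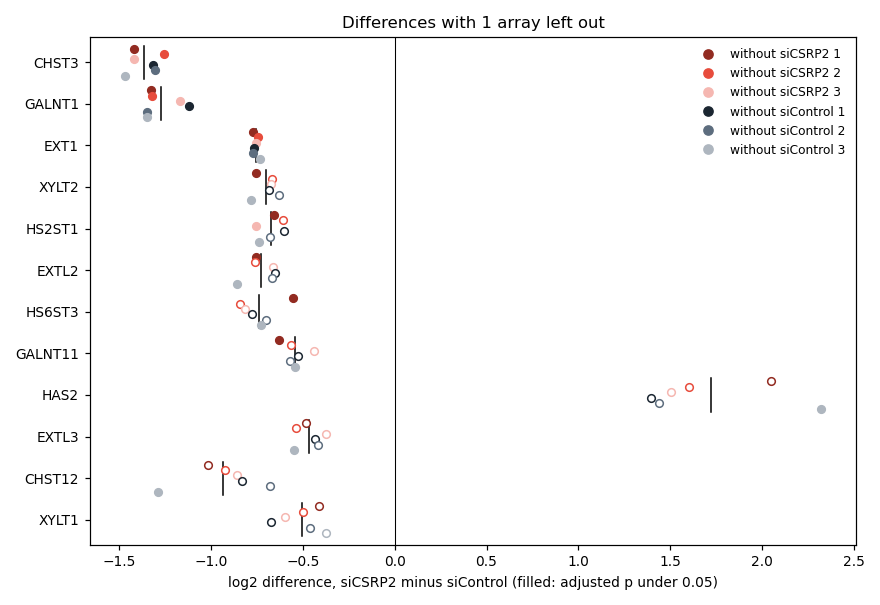
Log2 difference, siCSRP2 minus siControl (x axis), of the 12 genes that passed with or without the replicate block, with each array left out in turn; filled circles had an adjusted p under 0.05, and the black bars mark the value on all 6 arrays. CHST3, GALNT1 and EXT1 are filled throughout, and HAS2, EXTL3 and CHST12 are filled only without siControl 3.

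The result rested on the choice of arrays for 5 of the 8 falls. CHST3, GALNT1 and EXT1 passed with any array left out. XYLT2, EXTL2, HS6ST3 and GALNT11 passed in 2 of these 6 fits and HS2ST1 in 3, although each kept its direction. Only 3 of the 64 genes passed without siControl 1, without siControl 2 or without siCSRP2 2, and 4 without siCSRP2 3, all of them lower. The share of all genes that fell also dropped in these fits, to 1.22% with siCSRP2 2 left out, 1.74% with siCSRP2 3 left out, 1.00% with siControl 1 left out and 0.578% with siControl 2 left out, so fewer calls were not particular to the 64.

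Other genes of the same pathways, from lists chosen with earlier results of these data known, are given for comparison. Of 120 measured genes in 7 lists, 25 fell, 1 rose and 94 did not pass, with a median difference of -0.16. The share that fell was 20.8%, against 6.54% of all genes. Among all genes above the median gene 12.7% fell, with a median difference of -0.15. The median of the lists was thus near that of bright genes in general, while the share that fell was higher. Apart from the list of 1 gene, the share ran from 17.4% (nucleotide sugar and PAPS supply) to 27.8% (other glycosaminoglycan enzymes). These shares were not tested. The list genes are brighter than the 64, with a median level of 4.15 beside 2.92. Without siControl 3, 36 fell and 5 rose, and without siControl 2 only 1 passed.

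Proteoglycan cores and hyaluronan receptors had 7 falls and no rise among 34 genes. The chondroitin sulfate proteoglycan versican, VCAN, measured 7.49, 7.24 and 7.37 on siCSRP2 arrays and 8.19, 8.38 and 8.17 on siControl arrays (difference -0.88). The dermatan sulfate proteoglycan decorin, DCN (-1.10), and the keratan sulfate proteoglycan lumican, LUM (-1.43), also fell. Syndecan 2, SDC2, a membrane heparan sulfate proteoglycan, measured 6.09, 5.95 and 5.96 on siCSRP2 arrays and 6.73, 6.60 and 6.58 on siControl arrays (-0.64, limma adjusted p = 0.0137). Serglycin, SRGN (-0.61), the semaphorin and growth factor receptor NRP1 (-0.63) and the hyaluronan receptor HMMR (-0.95) made up the 7. Syndecan 4, SDC4, measured 9.84, 10.2 and 10.3 on siCSRP2 arrays and 9.45, 9.45 and 9.87 on siControl arrays, and passed with the replicate block (0.50, adjusted p = 0.0247; 0.0129 to 0.317 over all alternatives) but not in the fit without it (adjusted p = 0.0992); without siControl 3 it was 0.64 (adjusted p = 0.0171).

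Of 18 other glycosaminoglycan enzymes 5 fell and 1 rose. The uronyl 2-O-sulfotransferase UST fell (difference -1.12, SE 0.17, limma adjusted p = 0.0101), as did the heparan endosulfatase SULF2 (-0.94), the hyaluronan-degrading CEMIP2 (-0.70), the chondroitin GalNAc transferase CSGALNACT1 (-0.68) and the lysosomal sulfatase ARSB (-0.59). SULF2 had 2 probe sets, and the brighter, used here, averaged 2.93, below the median gene. The SULF2 difference ran from -1.12 to -0.39 over 15 alternatives, and it passed in 10 of them. CSGALNACT2, which has the same activity, rose: it measured 5.07, 5.20 and 5.71 on siCSRP2 arrays and 3.92, 4.01 and 4.84 on siControl arrays (1.07, SE 0.26, limma adjusted p = 0.044). siControl 3 was the highest control for CSGALNACT2, and the difference was 1.36 without it. With each array left out in turn, CSGALNACT2 passed in only 1 of 6 fits, that without siControl 3 (limma adjusted p up to 0.181). Over all 16 alternatives it passed in 11.

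Of 23 genes that supply nucleotide sugars and the sulfate donor PAPS, 4 fell and none rose. They were the mannose phosphate isomerase MPI (-1.11), the sialic acid activating enzyme CMAS (-0.89), the PAPS synthase PAPSS1 (-0.74) and the galactose enzyme GALT (-0.50). UAP1, which makes UDP-GlcNAc, a substrate of hyaluronan and heparan sulfate synthesis, measured 7.68, 7.66 and 7.71 on siCSRP2 arrays and 6.63, 6.58 and 7.68 on siControl arrays. As for HAS2, siControl 3 lay at the siCSRP2 level. The UAP1 difference of 0.72 did not pass in limma (adjusted p = 0.136), passed with the replicate block (adjusted p = 0.0484) and was 1.08 without siControl 3 (adjusted p = 0.0007; up to 0.41 over all alternatives). UDP-glucose dehydrogenase, UGDH, which makes the uronic acid donor, had a difference of -0.49 (limma adjusted p = 0.0886) and passed with the replicate block (adjusted p = 0.0237) and without siControl 3 (-0.56, adjusted p = 0.0429; 0.0158 to 0.288 over all alternatives).

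Among 20 enzymes of other O-glycosylation and core structures 4 fell and none rose: the endoplasmic reticulum glucosyltransferases POGLUT2 and POGLUT3 (-1.18 and -1.06), the protein O-fucosyltransferase POFUT1 (-0.92) and the xylosyltransferase GXYLT2 (-1.02). The ceramide glucosyltransferase UGCG measured 6.99, 7.43 and 7.22 on siCSRP2 arrays and 5.12, 5.62 and 7.13 on siControl arrays, again with siControl 3 at the siCSRP2 level (difference 1.26, limma adjusted p = 0.117). UGCG passed with the replicate block (adjusted p = 0.0302) and without siControl 3 (1.84, adjusted p = 0.00049; up to 0.349 over all alternatives). Of 16 oligosaccharyltransferase and dolichol genes 3 fell, OST4 (-1.08), RPN2 (-0.64) and the dolichol kinase DOLK (-1.0), and none rose. Of 8 genes for N-glycan trimming and lectins 2 fell, malectin, MLEC (-2.43), and calreticulin, CALR (-0.63). MLEC had 2 probe sets, and the value is that of the brighter. The MLEC difference passed in all 16 alternatives, but its size ran from -2.65 to -1.39. With each array left out in turn it stayed between -2.65 and -2.21. The 1 measured Golgi transporter did not pass.

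**Figure D5:**
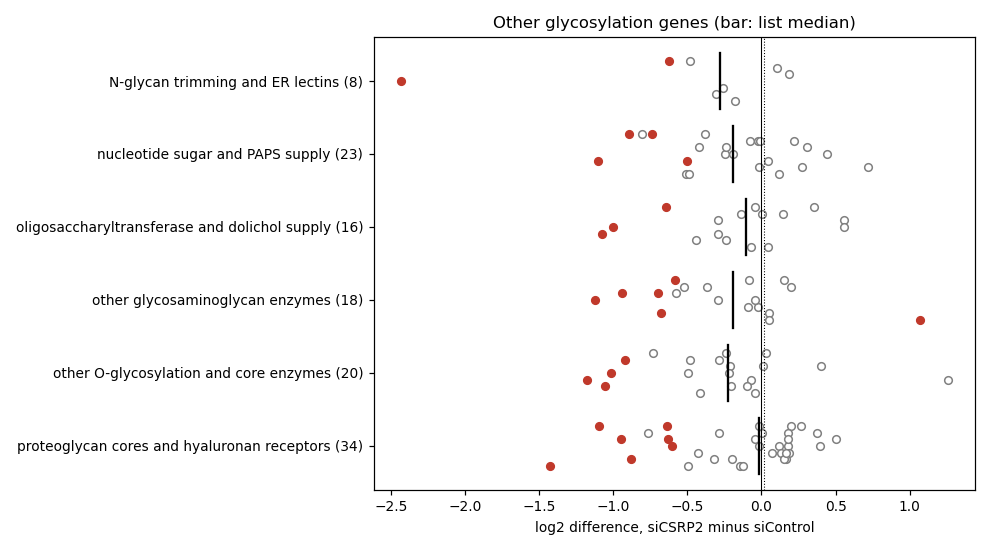
Log2 difference, siCSRP2 minus siControl (x axis), of the genes in 6 lists of other glycosylation genes (number of genes in brackets); filled points passed, black bars are list medians and the dotted line is the median of all genes, 0.02. The filled points lie below 0 except CSGALNACT2, at 1.07.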

How the data were processed

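RNA of 6 Hs578T samples was hybridised to Affymetrix HuGene 2.0 arrays. The authors deposited 1 log2 value per probe set and array; base 2 was inferred from the range of the values. Per the submitters' processing notes Partek was used, with no version or role; for background correction, summarisation, normalization and genome build, each is not given in the sources used here. Values were used as deposited. Of 53617 probe sets, 16098 had 1 gene symbol in the platform table and 37519 had none listed. Symbols were updated through a RefSeq table (GRCh38.p14).

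The siCSRP2 and siControl arrays, 3 of each, were compared by lmFit and eBayes of limma 3.58.1 (R 4.3.3) with no term but the group and without a filter on dim genes. The members, classes, lists and tests were chosen with earlier results of these data known. Genes named are those past the threshold with or without the replicate block, the 10 brightest, the smallest adjusted p of each class, up to 5 called genes of each list, and CSRP2. Others (CHST7, GALNT13, HAS3, HAS2-AS1, EXTL1, HS3ST3A1, HS3ST5, CHSY1, CHST11, CHST14, GALNT3, ALG13, UAP1, UGDH, UGCG, SDC4, NRP1 and HMMR) were chosen after their values were seen.

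Deviations from the group means correlated at 0.30, 0.19 and 0.32 between same-numbered arrays, and at -0.26 to 0.05 between arrays of unlike number. The alternatives with the replicate block therefore treated equal numbers as pairs, while the main comparison left the arrays unpaired. Pairing by number rests on the data, since the labels tie no number to a day or plate. No pair of arrays shared more than 2 identical values. Alternatives were quantile, cyclic loess and median scaling, filters on dim genes, the mean of a gene's probe sets, a trended robust fit, array weights, the replicate block and leaving out each array. None of the 11 listed galectins was measured. Precision is limited by having 3 arrays per group.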

Additional observations from a re-analysis of the deposited data

How the results depend on the processing

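The 8 genes that fell numbered 6 to 9 under the scalings, filters, probe set rule and trended fit, counting falls alone; array weights gave 13 (12 lower and 1 higher), and the fits with 1 array left out gave 3 to 13. HS2ST1 and HS6ST3 were lost under quantile normalization, and HS6ST3 under cyclic loess. With the replicate block 11 fell and 1 rose, which added CHST12, EXTL3, XYLT1 and HAS2 and lost none of the 8; the block changed no other call among the 64 genes. The calls over all genes numbered 1093 as reported, 2924 with array weights, 2348 with the replicate block, 2010 with the replicate block and quantile normalization, and 91 to 2620 with 1 array left out. Falls made up 89.1% of them as reported, 76% after quantile normalization and 77.7% after cyclic loess.

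The median of the 64 genes was -0.03 as reported. It was -0.045 after quantile normalization with or without the replicate block, -0.052 after cyclic loess, -0.12 after median centring, -0.088 without the dimmest 25% of genes, -0.26 without the dimmest 50%, -0.013 over the mean of probe sets, -0.015 with array weights, and -0.049 to 0.0022 with 1 array left out. The filters left 50 and 31 of the 64 genes. The median of all genes was 0.02 as reported and -0.07 after median centring. Calls in the pathway lists numbered 26 as reported, 44 with array weights, 41 with the replicate block and 1 to 41 with 1 array left out.

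None of the called genes changed direction. Among genes that did not pass, GALNT2 turned to 0.029 after quantile normalization with or without the replicate block, 0.011 after cyclic loess and 0.017 as the mean of probe sets. GALNT5 ran from -0.54 without siCSRP2 3 to 0.24 without siCSRP2 1. CHST15 turned to 0.14 after quantile normalization with or without the replicate block, 0.11 after cyclic loess, and 0.0033 and 0.096 without siCSRP2 3 and without siControl 2. The cause of these changes was not tested. Dim probe sets, 33 of the 64 genes, limit what a fold can show.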
